A study of Mus musculus with 12 samples.

Results

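The comparison set the whole striatum against the prefrontal cortex in mice classed as light drinkers of ethanol, and its members were the 6 of the 12 arrays of the series that carried this class, 3 per region, chosen by their labels. All groups were male Swiss mice, aged 22 weeks at the end, that had free choice among 3 bottles holding water, 5% ethanol and 10% ethanol. Access ran for 10 weeks, was withdrawn for 2 weeks, returned for 2 weeks, and went on for 2 weeks with 0.005 g/L of the bitter compound quinine in the ethanol bottles, followed by 1 further week of free choice. Light drinkers drank more water than ethanol, and their labels give a mean blood ethanol of 48 ± 13.3 mg/dL. Inflexible drinkers, the other class on the arrays, kept their preference for ethanol with quinine present and are labelled with 113 ± 11.3 mg/dL; the kind of error is not stated. Mice that drank water alone are not analysed here, so every group had access to ethanol. Each group has 1 RNA pool concentration in its labels, so its 3 arrays may be hybridisations of 1 pool, and the p-values then measure only the spread between arrays.

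The striatum is the input nucleus of the basal ganglia, and most of its neurons are GABAergic medium spiny neurons. Those of the direct pathway carry the dopamine receptor Drd1 with the peptides substance P and dynorphin, and those of the indirect pathway carry the receptor Drd2 with enkephalin. The prefrontal cortex is a layered tissue of glutamatergic projection neurons with several classes of GABAergic interneuron, and its projection neurons innervate the striatum. Both regions are studied in ethanol intake and in the control of habits.

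Signals are on the log2 scale, where a difference of 1 is a 2-fold change, and each gene is represented by its brightest probe set over the 12 arrays. Values per array are given in the order of replicates 1, 2 and 3, differences are striatum minus prefrontal cortex with their standard error from the fit across the 12 arrays, and a gene is said to have been called, or to be higher or lower, where its adjusted p in limma was below 0.05 (Benjamini-Hochberg over 45037 probe sets). Between 22.4% and 25.0% of probe sets were above log2 4 on an array; low signals are compressed on such arrays, so the differences of dim genes are understated. The array hybridisation controls, RNAs added to each sample, were bright on replicate 2 of prefrontal cortex and replicate 1 of striatum in light drinkers, with means of 8.90 and 8.76 against 6.20 to 6.67 on the other 4 arrays. No label gives a reason for this. It falls on 1 array per region. Entering it as a block therefore could not change the light drinkers' differences. All 851 calls were kept with the block, but for that reason this is no check on them. On the dim-control arrays alone, 674 of the 851 were kept. Of these calls, 646 were kept without replicate 2 of prefrontal cortex and 630 without replicate 1 of striatum. Over the 12060 probe sets above log2 4 on at least 3 arrays, replicate 2 of prefrontal cortex correlated at 0.95 with replicates 1 and 3. Those 2 correlated at 0.997. Replicate 1 of striatum correlated at 0.96 and 0.94 with replicates 2 and 3, which correlated at 0.99.

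Of 45037 probe sets, 1496 were called (3.32%), and of 18193 genes, 851 (4.68%). Of these, 397 were higher in striatum (2.18%) and 454 were lower (2.5%), and the median difference over all genes was 0.00. The count of called genes was 542 without replicate 1 of prefrontal cortex and 563 without its replicate 3. The calls were more frequent among the 6598 genes above log2 4 on average, at 8.71%. The shares of 4.68% and 8.71% are the background for each count of list members below. Among called genes, the difference exceeded 2-fold in 96 on the higher side and 74 on the lower side. The 3 striatal arrays and the 3 cortical arrays did not overlap in 3455 genes (19%), and in none of the 851 called genes did they overlap. In bulk tissue a larger share of a cell type and more RNA per cell of that type cannot be told apart.

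**Figure D1:**
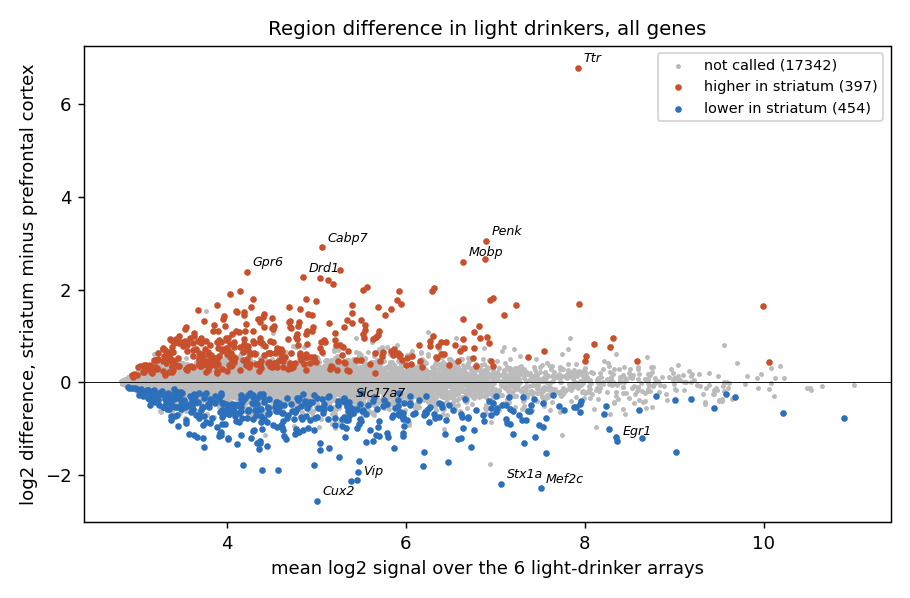
Region difference of every gene in light drinkers (vertical axis, log2 striatum minus prefrontal cortex) against its mean log2 signal over the 6 arrays (horizontal axis). Each point is a gene: red for the 397 called higher in striatum, blue for the 454 called lower, grey for the rest. Ttr stands apart at 6.80, and Cux2 lies lowest at -2.56.

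Many of the largest differences on the striatal side were in genes of medium spiny neurons. Among defining markers, Drd1, Drd2, Penk and Ppp1r1b were higher on the arrays labelled striatum, and Cux2, Tbr1 and Rorb on those labelled prefrontal cortex. Others, Slc17a7 and Chat, were not called. Of 27 measured cortical transcription factors, 6 were higher in striatum and 10 lower, and of 26 deep layer markers, 7 were higher and 3 lower. Among the receptor and peptide genes of medium spiny neurons, 9 of 17 measured were higher in striatum and 0 lower, with a median difference of 0.58 against 0.00 over all genes. Penk, the enkephalin precursor gene, gave 5.57, 5.03 and 5.51 in prefrontal cortex and 8.33, 8.54 and 8.42 in striatum, so that the lowest striatal array lay far above the highest cortical one. Its difference was 3.06 ± 0.13 (n = 3 arrays per region, limma adjusted p = 2.82e-06), which is 8.33-fold. Gpr6, a receptor of indirect pathway neurons that raises cyclic AMP without a ligand, was at 3.08, 2.96 and 3.07 in prefrontal cortex, near the lowest signals on the arrays. In striatum Gpr6 was at 5.47, 5.51 and 5.29, a difference of 2.38 ± 0.13 (limma adjusted p = 1.69e-05). Drd2, the inhibitory dopamine receptor of the same neurons, was at 3.08, 3.18 and 2.99 in prefrontal cortex and 5.05, 4.97 and 4.95 in striatum, with groups that did not overlap and a difference of 1.91 ± 0.15 (limma adjusted p = 1.03e-04).

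Among genes of the direct pathway, Drd1, which couples dopamine to a rise in cyclic AMP, was at 3.81, 3.61 and 3.75 in prefrontal cortex and 5.71, 6.04 and 6.23 in striatum, a difference of 2.27 ± 0.13 (limma adjusted p = 1.82e-05). Tac1, the precursor of substance P, was at 5.39, 5.18 and 5.31 in prefrontal cortex and 6.80, 7.62 and 7.60 in striatum, where replicate 1 was the lowest array. Its difference was 2.04 ± 0.24 (limma adjusted p = 0.00104). Slc35d3, a transporter gene of direct pathway neurons, had a smaller difference of 1.18 ± 0.07 with close replicates, at 2.94, 2.96 and 2.97 in prefrontal cortex and 4.13, 4.24 and 4.04 in striatum (limma adjusted p = 1.80e-05). Pdyn, the dynorphin precursor gene, was below log2 4 on every array, at 3.26, 3.08 and 3.28 in prefrontal cortex and 3.52, 3.66 and 3.60 in striatum. Its difference of 0.38 ± 0.08 passed the test (limma adjusted p = 0.0242) but did not without replicate 1 or 2 of prefrontal cortex or without replicate 2 or 3 of striatum, when it ranged from 0.32 to 0.41. By list, 5 of 10 direct pathway genes and 5 of 8 indirect pathway genes were higher in striatum and 0 of either lower, with medians of 0.43 and 1.25; without replicate 1 of striatum, 1 direct pathway gene was lower.

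Among the 8 members of the receptor and peptide list that did not pass the test were 3 receptor genes studied in reward. Cnr1, the cannabinoid receptor gene, was at 7.42, 7.48 and 7.29 in prefrontal cortex and 7.95, 7.52 and 7.38 in striatum, a difference of 0.22 ± 0.22. Htr2c, a serotonin receptor gene, was at 4.81, 5.46 and 4.67 in prefrontal cortex and 6.43, 5.67 and 5.67 in striatum, with non-overlapping arrays and a difference of 0.95 ± 0.33 (limma adjusted p = 0.240). Oprm1, the mu opioid receptor gene, was at 2.98, 2.99 and 2.97 in prefrontal cortex and 3.06, 3.00 and 2.99 in striatum, near the lowest signals, with a difference of 0.04 ± 0.03. The adenosine receptor gene Adora2a has no probe set with a single gene name in the annotation used, and is not analysed here.

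**Figure D2:**
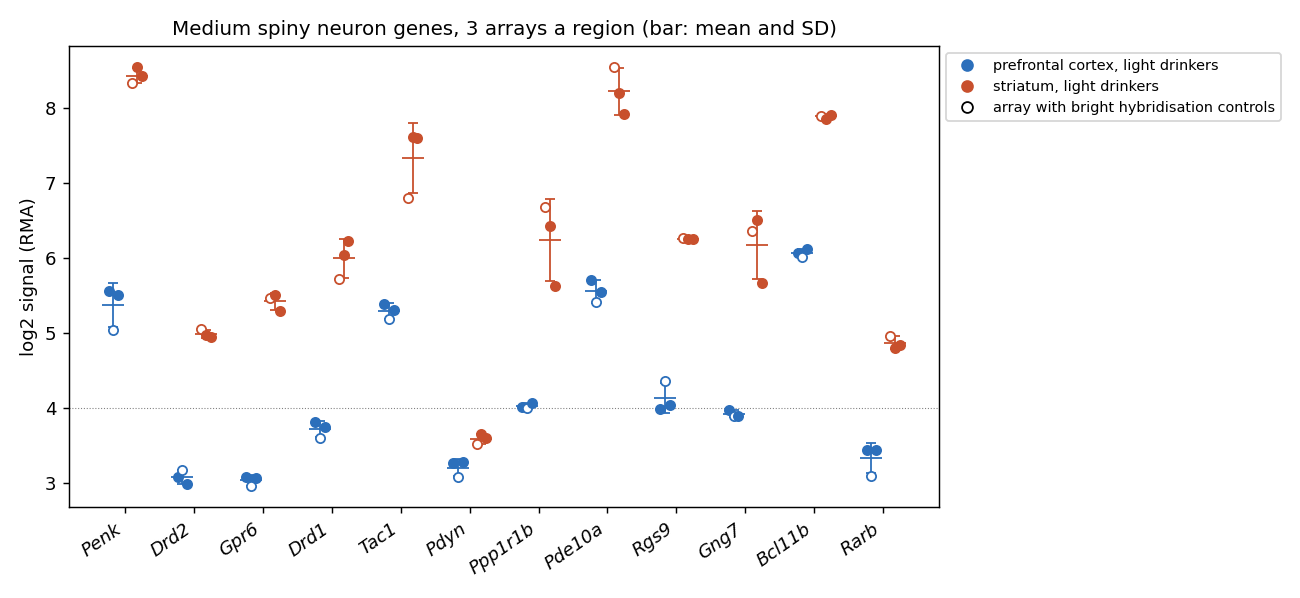
Log2 signal of 12 genes of medium spiny neurons on each light-drinker array (vertical axis), 3 arrays for prefrontal cortex (blue) and 3 for striatum (red), with bars for the mean and SD and open points for the arrays with bright hybridisation controls. The regions do not overlap in any of the 12 genes, all of them called, as holds for every called gene and for 19% of all genes. Penk and Pde10a reach the highest striatal signals, and Pdyn stays below 4 in both regions.

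In the signalling chain downstream of these receptors, 67.9% of the listed genes were called, against 4.68% over all genes. Of 28 measured genes for second messenger signalling in medium spiny neurons, 18 were higher in striatum and 1 was lower, with a median difference of 0.79. The 18 include Arpp21, whose probe sets disagree, and with the mean of each gene's probe sets 17 were higher and 3 lower, with a median of 0.43. Without replicate 3 of striatum, 2 were lower. Adcy5, the main striatal adenylyl cyclase, was at 4.79, 5.10 and 4.74 in prefrontal cortex and 6.54, 6.63 and 6.37 in striatum, a difference of 1.63 ± 0.18 (limma adjusted p = 8.49e-04). Gng7, the G protein subunit that pairs with this cyclase, was at 3.98, 3.90 and 3.89 in prefrontal cortex and 6.36, 6.50 and 5.66 in striatum, and replicate 3 of striatum was the lowest of its group. The difference in Gng7 was 2.25 ± 0.27 (limma adjusted p = 0.00140). Gnal, the stimulatory alpha subunit of the same complex, was at 6.15, 5.73 and 6.16 in prefrontal cortex and 6.16, 7.14 and 6.91 in striatum. Its striatal replicate 1 coincided with the upper cortical arrays, and the difference of 0.72 ± 0.24 did not pass the test (limma adjusted p = 0.193).

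Genes that act on cyclic nucleotides and on their kinase followed. Pde10a, a phosphodiesterase concentrated in medium spiny neurons, was at 5.71, 5.41 and 5.54 in prefrontal cortex and 8.54, 8.20 and 7.91 in striatum, a difference of 2.67 ± 0.17 or 6.34-fold (limma adjusted p = 3.58e-05). Pde1b, a calcium-dependent phosphodiesterase, differed by 1.96 ± 0.20 (limma adjusted p = 4.33e-04). Ppp1r1b encodes DARPP-32, the phosphatase inhibitor that kinase A switches on in these neurons. It was at 4.02, 4.00 and 4.07 in prefrontal cortex and 6.67, 6.43 and 5.62 in striatum, so that its striatal spread was wide and replicate 3 lay lowest. Its difference was 2.21 ± 0.31 (limma adjusted p = 0.00312). Rgs9, which shortens G protein signalling in the striatum, had the tightest striatal arrays of the group, at 6.26, 6.25 and 6.25 against 3.99, 4.36 and 4.05 in prefrontal cortex, a difference of 2.12 ± 0.12 (limma adjusted p = 1.90e-05). Its relative Rgs4 was the 1 member lower in striatum, by -0.75 ± 0.08 (limma adjusted p = 5.93e-04), with 6.93, 7.23 and 7.05 in prefrontal cortex and 6.33, 6.38 and 6.23 in striatum. Scn4b, a sodium channel subunit of medium spiny neurons that the signalling list also holds, differed by 2.43 ± 0.19 (limma adjusted p = 9.71e-05). Rasd2, the small G protein Rhes, differed by 1.98 ± 0.18 (limma adjusted p = 2.24e-04), but with the mean of its probe sets the difference of 1.62 was not called.

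For Arpp21, a kinase A substrate of striatal neurons, the direction depended on the probe set. The brightest one was higher in striatum by 0.75 ± 0.05 (limma adjusted p = 6.28e-05), another of its probe sets was called in the opposite direction, and the mean over them was -0.29. No direction is therefore given for this gene.

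Cyclic AMP acts on transcription through CREB, a factor that binds the cyclic AMP response element TGACGTCA and its core TGACG. Upstream sequence is shown for 4 genes of the comparison that hold one of these letter strings in the bases before their start, a pair higher in striatum and a pair lower. The stretches are 100 bases each, from RefSeq promoter windows on GRCm38.p6, written from 5′ to 3′ on the gene's strand, with every match in capitals. They lie at chr10:41072319-41072418 on the minus strand for Gpr6, at chr6:7554961-7555060 on the plus strand for Tac1, at chr17:26508566-26508665 on the minus strand for Dusp1 and at chr10:5639089-5639188 on the plus strand for Vip.
Gpr6: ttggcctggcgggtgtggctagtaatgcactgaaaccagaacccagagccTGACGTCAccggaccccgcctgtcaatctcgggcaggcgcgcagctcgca
Tac1: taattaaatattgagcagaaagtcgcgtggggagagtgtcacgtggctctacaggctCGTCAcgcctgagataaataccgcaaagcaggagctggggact
Dusp1: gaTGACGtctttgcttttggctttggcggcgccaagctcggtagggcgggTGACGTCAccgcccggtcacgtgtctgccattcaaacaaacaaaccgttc
Vip: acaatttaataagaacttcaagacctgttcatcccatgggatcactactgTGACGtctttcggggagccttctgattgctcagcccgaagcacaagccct

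The matches begin 78 bases before the start of Gpr6, 43 before that of Tac1, where the core stands on the opposite strand, 143 before that of Dusp1 and 79 before that of Vip. The stretch of Dusp1 holds a further core 191 bases before the start. Both strings were searched on both strands of the 250 bases before each start, and the core also lies within the full element. Of 32851 windows, 1.55% held the full element and 17.77% held the core. For named genes, windows on chromosome 18 were left out, a filter that was not set for the 32851 windows. Among the 50 genes named for the size of their difference, 39 had a window that was used, among them Gpr6, Tac1 and Vip. Dusp1 comes from the plasticity list and is not among the 50. The full element stood before 1 of the 18 genes higher in striatum and 0 of the 20 lower ones, and the core before 3 and 7 of them, in 12.00% and 27.27% of their windows. The match thus occurs on both sides of the comparison, and it describes the letters only.

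Transcription factors of striatal development and identity were higher in striatum in 10 of 20 measured cases, lower in 2 and not called in 8, with a median of 0.32. Bcl11b, also called Ctip2, a factor of medium spiny neurons and of deep cortical projection neurons, was at 6.07, 6.01 and 6.12 in prefrontal cortex and 7.89, 7.86 and 7.91 in striatum. The arrays of each region lay close together, and the difference was 1.82 ± 0.06 (limma adjusted p = 1.21e-06). Rarb, a retinoic acid receptor, was at 3.45, 3.10 and 3.45 in prefrontal cortex and 4.97, 4.80 and 4.85 in striatum, a difference of 1.54 ± 0.09 (limma adjusted p = 1.80e-05). Its partner Rxrg differed by 0.71 ± 0.06, with 3.24, 3.35 and 3.31 in prefrontal cortex and 3.92, 4.17 and 3.94 in striatum. Foxo1, a forkhead factor, differed by 1.04 ± 0.10, Six3, a factor of indirect pathway neurons, by 1.00 ± 0.13 and Isl1, a factor of direct pathway and cholinergic neurons, by 0.74 ± 0.11.

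The 2 members of that list that were lower in striatum are also genes of cortical interneurons. Dlx1 was at 4.40, 4.30 and 4.29 in prefrontal cortex and 3.52, 3.61 and 3.59 in striatum, a difference of -0.76 ± 0.04 (limma adjusted p = 1.80e-05). Sp8 was below log2 4 on every array and differed by -0.35 ± 0.04 (limma adjusted p = 5.32e-04). Meis2, which is abundant in developing striatum, was at 6.55, 6.84 and 6.38 in prefrontal cortex and 6.36, 6.22 and 6.20 in striatum, and its difference of -0.33 ± 0.11 was not called.

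On the cortical side, genes of the upper layers were among the lower ones. Of 17 measured upper layer markers, 6 were lower in striatum and 1 was higher, with a median difference of -0.25. The higher one, Kcnip2, a potassium channel accessory gene, at 0.65 ± 0.15, was not called without replicate 1, 2 or 3 of prefrontal cortex or without replicate 1 or 2 of striatum. Cux2, a homeobox factor of layers above the middle of the cortex, was at 6.44, 6.05 and 6.39 in prefrontal cortex and 3.49, 3.96 and 3.75 in striatum. Its difference of -2.56 ± 0.19 was the largest on this side, 5.90-fold (limma adjusted p = 6.63e-05). Rasgrf2, an exchange factor of upper layer neurons, was at 7.30, 7.43 and 7.29 in prefrontal cortex and 5.35, 5.78 and 5.71 in striatum, a difference of -1.73 ± 0.13 (limma adjusted p = 6.86e-05). Lamp5, a gene of upper layer neurons and of a class of interneurons, differed by -1.81 ± 0.18 (limma adjusted p = 3.70e-04). Rorb, a nuclear receptor of the middle layers, differed by -1.18 ± 0.18 (limma adjusted p = 0.00611), and its cortical arrays at 5.77, 6.23 and 5.73 lay above its striatal arrays at 4.66, 4.83 and 4.70.

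**Figure D3:**
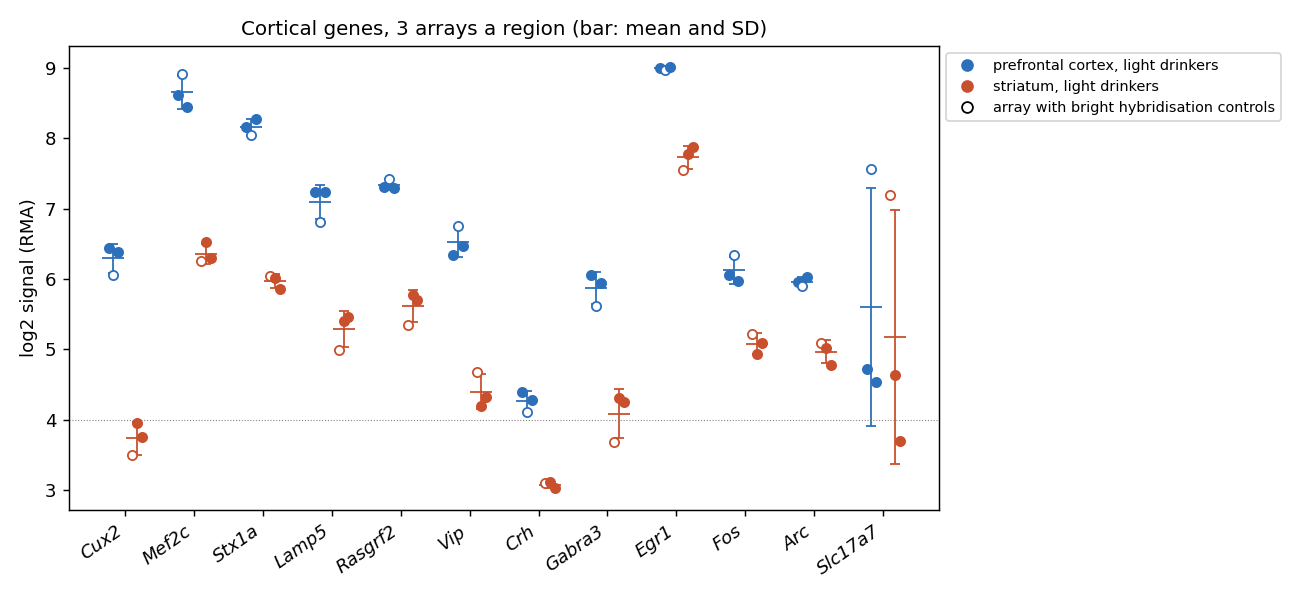
Log2 signal of 12 cortical genes on each light-drinker array (vertical axis), with the same colours, bars and open points as in the plot of medium spiny neuron genes. The regions do not overlap in the first 11 genes, all of them called, as holds for every called gene and for 19% of all genes. Slc17a7, on the right, is bright on the 2 arrays with open points, 1 in each region, and dim on the other 4.

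Deep layer markers were called in both directions. Of 26 measured, 7 were higher in striatum and 3 lower, with a median of 0.06 that was between -0.03 and 0.11 in the alternatives. The counts were 4 and 1 without replicate 1 of prefrontal cortex and 3 and 1 without its replicate 3, and 1 was lower without replicate 2 of either region. Tbr1, a factor of corticothalamic neurons, was lower in striatum by -1.23 ± 0.09 (limma adjusted p = 6.33e-05), with 5.28, 5.29 and 5.25 in prefrontal cortex and 4.08, 4.17 and 3.89 in striatum. Hs3st4, a sulfotransferase gene of the deepest layer, was higher in striatum by 1.41 ± 0.14, at 3.87, 3.46 and 3.79 in prefrontal cortex and 5.09, 5.11 and 5.15 in striatum (limma adjusted p = 3.52e-04). Crym, a thyroid hormone binding protein gene, was higher by 1.46 ± 0.15 and Pcp4, a calmodulin-binding peptide gene, by 0.95 ± 0.13; both are also genes of the striatum. Tle4, a corepressor, was higher by 0.98 ± 0.17 but not called without replicate 1 or 3 of prefrontal cortex, at 0.91 and 0.94. Fezf2, which specifies subcortical projection neurons, was at 4.86, 4.39 and 4.86 in prefrontal cortex and 4.49, 4.53 and 4.65 in striatum, with a difference of -0.15 ± 0.13 that was not called.

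Of 27 measured cortical transcription factors, 10 were lower in striatum and 6 higher, with a median of -0.11 that ran from -0.23 without replicate 2 of prefrontal cortex to -0.057 without its replicate 3. Mef2c, a factor of activity-dependent synapse control, was at 8.62, 8.91 and 8.44 in prefrontal cortex and 6.26, 6.52 and 6.30 in striatum, a difference of -2.30 ± 0.20 or 4.91-fold (limma adjusted p = 1.80e-04). The members called higher in striatum went against the name of their list. Among them, Lmo3, a transcriptional cofactor, was at 4.18, 4.23 and 4.08 in prefrontal cortex and 5.43, 5.46 and 5.51 in striatum, a difference of 1.31 ± 0.09 (limma adjusted p = 6.28e-05). Neurod6, a factor of cortical and hippocampal pyramidal neurons, was higher by 0.79 ± 0.09, Pou3f1, a POU factor, by 1.13 ± 0.14 and Zfpm2, a GATA cofactor of deep layer neurons, by 1.11 ± 0.16. Nr4a2, a nuclear receptor of the deepest cortical layer, claustrum and dopamine neurons, differed by 1.48 ± 0.29 and was at 6.33, 5.34 and 5.26 on the striatal arrays. Without replicate 1 or 3 of prefrontal cortex, Nr4a2 was not called, at 1.45 and 1.41.

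Genes of glutamatergic transmission and plasticity were lower in striatum in 9 of 36 cases and higher in 2, with a median of -0.29. The median was -0.12 without replicate 2 of prefrontal cortex and -0.13 without replicate 3 of striatum, and 1 gene was higher without replicate 1 or 2 of prefrontal cortex or replicate 2 or 3 of striatum. Stx1a, a syntaxin of the synaptic vesicle release complex, was at 8.16, 8.05 and 8.28 in prefrontal cortex and 6.04, 6.01 and 5.86 in striatum, a difference of -2.19 ± 0.09 (limma adjusted p = 2.82e-06). Slc30a3, the zinc transporter of cortical glutamatergic vesicles, was lower by -0.77 ± 0.12 (limma adjusted p = 0.00777). The vesicular glutamate transporter gene Slc17a7, a defining marker of cortical projection neurons, could not be read as a marker here. It was at 4.72, 7.56 and 4.54 in prefrontal cortex and 7.20, 4.63 and 3.70 in striatum, so that its bright arrays were those with bright hybridisation controls, and its difference of -0.43 ± 1.39 was not called. Camk2a, a kinase of excitatory and medium spiny neurons, was at 9.63, 9.22 and 9.85 in prefrontal cortex and 9.10, 9.44 and 9.39 in striatum and was not called, with a difference of -0.26 ± 0.19.

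The lower genes of that list included immediate early genes, which neurons transcribe within minutes of activity. Egr1, a zinc finger factor, was at 9.00, 8.98 and 9.01 in prefrontal cortex and 7.55, 7.77 and 7.87 in striatum, a difference of -1.27 ± 0.08 (limma adjusted p = 2.72e-05). Fos, a part of the AP-1 factor, was at 6.05, 6.35 and 5.98 in prefrontal cortex and 5.22, 4.93 and 5.09 in striatum, a difference of -1.04 ± 0.11 (limma adjusted p = 6.56e-04). Arc, a postsynaptic regulator of AMPA receptors, was at 5.96, 5.90 and 6.03 in prefrontal cortex and 5.09, 5.02 and 4.78 in striatum, 2.00-fold lower (limma adjusted p = 0.00241). Egr2 differed by -1.08 ± 0.10 (limma adjusted p = 3.35e-04) and the phosphatase gene Dusp1, whose upstream element is shown above, by -0.69 ± 0.10 (limma adjusted p = 0.00525). The cortical and striatal arrays did not overlap in these 5 genes, as in all 851 called genes and in 19% of all genes.

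Genes of GABAergic neurons and interneurons were lower in striatum in 7 of 27 cases and higher in 1, with a median of -0.14. Gad1, a glutamate decarboxylase of all GABAergic neurons, was at 8.59, 8.80 and 8.54 in prefrontal cortex and 8.81, 8.75 and 8.55 in striatum, a difference of 0.06 ± 0.11. Its relative Gad2 differed by 0.36 ± 0.13, and neither was called. Vip, the peptide gene of a class of cortical interneurons, was at 6.34, 6.76 and 6.47 in prefrontal cortex and 4.67, 4.19 and 4.32 in striatum, a difference of -2.13 ± 0.15 or 4.36-fold (limma adjusted p = 5.35e-05). Sst and Pvalb, which mark 2 other classes, differed by -0.06 ± 0.18 and -0.63 ± 0.17 without a call. Prox1, the member that was higher in striatum, is a factor of interneurons and of hippocampal granule cells. It was at 2.93, 3.06 and 2.92 in prefrontal cortex and 4.04, 4.12 and 4.19 in striatum, a difference of 1.15 ± 0.08 (limma adjusted p = 6.86e-05).

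Peptide systems were split between the regions, with 5 of 43 genes higher and 6 lower in striatum, or 3 higher without replicate 1 of prefrontal cortex or replicate 2 or 3 of striatum. Beside Penk, Tac1 and Vip, Crh, the corticotropin-releasing hormone gene, was at 4.40, 4.10 and 4.28 in prefrontal cortex and 3.09, 3.11 and 3.02 in striatum, a difference of -1.19 ± 0.13 (limma adjusted p = 7.79e-04). Its receptor gene Crhr1 was also lower, by -0.47 ± 0.08 (limma adjusted p = 0.0103). Adcyap1, the precursor of the peptide PACAP, was lower by -0.93 ± 0.05 with close replicates (limma adjusted p = 6.39e-06). Cckbr, a receptor for cholecystokinin, was lower by -1.21 ± 0.13 (limma adjusted p = 7.04e-04). Npy, the neuropeptide Y gene, was at 6.52, 6.45 and 6.74 in prefrontal cortex and 5.93, 5.98 and 5.78 in striatum, a difference of -0.67 ± 0.11 (limma adjusted p = 0.00809). Its receptor gene Npy2r ran the other way, from 3.17, 3.36 and 3.22 in prefrontal cortex to 4.52, 4.50 and 4.42 in striatum, a difference of 1.23 ± 0.09 (limma adjusted p = 6.03e-05).

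Transmitter receptors and channels differed from subunit to subunit. Of 36 glutamate receptor and scaffold genes, 3 were higher in striatum and 4 lower, a called share of 19.4% against 4.68% over all genes. Gria1, an AMPA receptor subunit, was at 6.65, 5.87 and 6.59 in prefrontal cortex and 7.56, 8.15 and 7.75 in striatum, a difference of 1.45 ± 0.24 (limma adjusted p = 0.00945). Gria4, another AMPA subunit, was lower by -0.76 ± 0.08 (limma adjusted p = 8.47e-04), and so was Grm2, a presynaptic glutamate receptor, by -0.78 ± 0.12 (limma adjusted p = 0.00497). Shisa6, an auxiliary AMPA receptor protein, was at 3.21, 3.04 and 3.24 in prefrontal cortex and 5.16, 5.23 and 5.01 in striatum, a difference of 1.97 ± 0.07 (limma adjusted p = 1.49e-06). Among 14 GABA receptor genes, Gabra3 was the 1 lower member, from 6.06, 5.62 and 5.94 in prefrontal cortex to 3.69, 4.31 and 4.25 in striatum, a difference of -1.79 ± 0.18 (limma adjusted p = 4.33e-04). Gabra5, a subunit of extrasynaptic receptors, was higher in striatum by 1.29 ± 0.16 (limma adjusted p = 0.00194), and the anchoring protein gene Gphn by 0.48 ± 0.06 (limma adjusted p = 0.00237).

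Of 54 potassium channel genes, 6 were higher and 5 lower in striatum, with a median of -0.07. Without replicate 1, 2 or 3 of prefrontal cortex 2, 3 and 2 were higher, without replicate 1 or 2 of striatum 3 were lower, and the median was -0.026 without replicate 2 of prefrontal cortex, -0.042 without replicate 2 of striatum and -0.021 without its replicate 3. Kcnab1, an accessory subunit, was higher by 1.59 ± 0.11 (limma adjusted p = 6.28e-05), with 4.97, 5.18 and 4.99 in prefrontal cortex and 6.43, 6.64 and 6.82 in striatum. Kcnv1, a silent subunit that modifies other channels, was lower by -1.04 ± 0.09 (limma adjusted p = 2.37e-04). Dpp10, an accessory protein of A-type channels, was at 6.41, 6.59 and 6.33 in prefrontal cortex and 4.45, 4.44 and 4.61 in striatum, a difference of -1.94 ± 0.13 (limma adjusted p = 3.42e-05). Among 47 axon guidance genes, 8 were higher and 3 lower, or 5 lower without replicate 2 of prefrontal cortex. Dcc, the netrin receptor, was at 3.99, 3.92 and 3.93 in prefrontal cortex and 5.19, 5.09 and 5.02 in striatum, a difference of 1.15 ± 0.07 (limma adjusted p = 2.77e-05). Sema3e, a semaphorin, was higher by 2.84-fold (limma adjusted p = 1.32e-04) and Epha7, an ephrin receptor, by 1.34 ± 0.10 (limma adjusted p = 1.03e-04). Of 27 cadherins, 3 were higher and 6 lower, among them Pcdh20 at 1.57 ± 0.10 (limma adjusted p = 3.90e-05) and Pcdh7 at -1.27 ± 0.12 (limma adjusted p = 4.00e-04). Without replicate 3 of prefrontal cortex or of striatum 3 cadherins were lower, and without replicate 1 of striatum 5 were higher.

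Of 11 genes listed for dopamine axons and dopamine breakdown, 1 was higher in striatum and 0 were lower. The called share was 9.09%, against 4.68% over all genes. The higher one was Nr4a2, a nuclear receptor and not itself a gene of axons or breakdown, whose leave-out values are above. Of 10 cholinergic genes, 2 were higher in striatum, Isl1 and Ecel1, and 0 of the 10 reached log2 4 on average. Chat, the acetylcholine-synthesising enzyme gene and defining marker of these cells, was at 2.97, 3.04 and 2.96 in prefrontal cortex and 2.90, 2.94 and 2.96 in striatum. Th, the tyrosine hydroxylase gene of dopamine neurons, was at 3.06, 2.96 and 3.13 in prefrontal cortex and 2.93, 2.96 and 2.98 in striatum. Neither was called, and both lay near the lowest signals of the arrays.

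**Figure D4:**
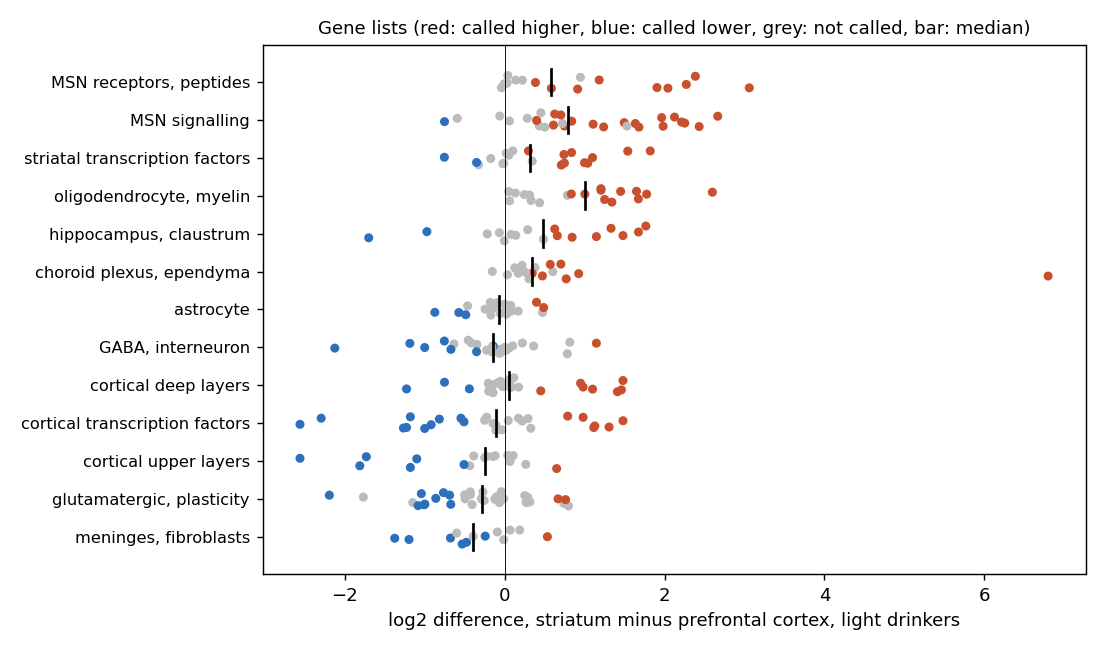
Region difference of the measured members of 13 gene lists in light drinkers (horizontal axis, log2 striatum minus prefrontal cortex). Each point is a gene, red where called higher in striatum, blue where called lower and grey where not called, and the black bar is the list's median. The lists of medium spiny neuron signalling and of myelin lie mostly to the right, with medians of 0.79 and 1.00, and meningeal genes lie mostly to the left at -0.39.

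Genes of other cell types differed between the regions in some lists and hardly at all in others. Of 19 measured genes of oligodendrocytes and myelin, 11 were higher in striatum and 0 lower, and all 19 had a positive difference, with a median of 1.00. Mobp, a structural myelin protein, was at 5.53, 5.03 and 5.47 in prefrontal cortex and 7.79, 8.11 and 7.92 in striatum, a difference of 2.60 ± 0.18 or 6.05-fold (limma adjusted p = 5.35e-05). Mal, a myelin proteolipid, was at 5.09, 4.96 and 5.00 in prefrontal cortex and 6.46, 6.94 and 6.97 in striatum, a difference of 1.78 ± 0.16 (limma adjusted p = 2.39e-04). Mbp, the myelin basic protein gene and among the brightest on the arrays, was at 9.46, 8.71 and 9.34 in prefrontal cortex and 10.57, 11.07 and 10.82 in striatum, a difference of 1.65 ± 0.22 (limma adjusted p = 0.00225). Replicate 2 of prefrontal cortex, an array with bright controls, was the lowest in Mobp, Mal and Mbp. The enzymes Cnp, Ugt8a and Aspa were higher by 1.67 ± 0.25, 1.34 ± 0.10 and 0.83 ± 0.06. The list's mean signal ran from 4.34 to 4.45 over the cortical arrays and from 5.29 to 5.45 over the striatal ones. Of 8 genes of the precursor cells of this lineage, 0 were higher and 1 was lower, with a median of 0.04. The called share was 12.5%, against 4.68% over all genes. The lower gene was not called without replicate 2 or 3 of prefrontal cortex or replicate 1 or 3 of striatum.

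Astrocyte genes were called higher in 2 and lower in 3 of 22 cases, or lower in 1 without replicate 1 or 3 of striatum, and their median of -0.08 ran from -0.16 to -0.0083 with 1 array left out, lowest and highest without replicates 2 and 1 of prefrontal cortex. Of 16 microglial genes, Ly86, a lymphocyte antigen gene, was called higher, but not with any 1 of the 6 arrays left out. Ctss, a lysosomal protease gene, was called lower, but not without replicate 1 or 2 of striatum. The called share of the microglial list was 12.5%, against 4.68% over all genes. Of 20 endothelial and mural genes, 0 were called, or 1 without replicate 1 of striatum, and their list mean was 4.33 to 4.43 in prefrontal cortex and 4.28 to 4.34 in striatum. Of 13 meningeal and fibroblast genes, 6 were lower in striatum and 1 was higher, with a median of -0.39. Their list means were 4.41 to 4.48 in prefrontal cortex and 4.05 to 4.13 in striatum. Without replicate 1 or 3 of either region 4 of them were lower, without replicate 2 of prefrontal cortex 7 and without replicate 2 of striatum 5. Fmod, a matrix protein gene, was at 5.18, 5.06 and 5.20 in prefrontal cortex and 3.70, 3.83 and 3.77 in striatum, a difference of -1.38 ± 0.10 (limma adjusted p = 7.70e-05). Genes of neuroblasts and olfactory bulb were lower in 4 of 15 cases and higher in 1, among them Dcx, a gene of migrating neuroblasts, at -0.65 ± 0.07 (limma adjusted p = 6.55e-04). In that list 2 were higher without replicate 1 of striatum and 0 without replicate 2 or 3 of either region. The part of these cells in the regional differences was not tested.

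Choroid plexus and ependymal genes were higher in striatum in 7 of 17 cases and lower in 0, with a median of 0.34. Ttr, the transthyretin gene that choroid plexus transcribes at high levels, was at 4.69, 4.36 and 4.55 in prefrontal cortex and 11.02, 11.48 and 11.48 in striatum, where it was among the brightest genes of the array. Its difference of 6.80 ± 0.23 is 111-fold (limma adjusted p = 8.73e-07). The other called members were far weaker. Kl, the klotho gene, was at 2.93, 2.92 and 3.02 in prefrontal cortex and 3.49, 3.72 and 3.77 in striatum, a difference of 0.70 ± 0.09 (limma adjusted p = 0.00257). Clic6 differed by 0.93 ± 0.14, Kcnj13 by 0.57 ± 0.09 and the homeobox gene Otx2 by 0.34 ± 0.04, and 13 of the 17 genes stayed below log2 4 on all 6 arrays. The list's mean ran from 3.22 to 3.24 in prefrontal cortex and from 3.95 to 4.00 in striatum.

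Genes of hippocampus and claustrum, which lie near the striatum, were higher in striatum in 8 of 17 cases and lower in 2, with a median of 0.48, or lower in 1 without replicate 3 of striatum. Spink8 was at 3.04, 3.13 and 3.09 in prefrontal cortex and 4.40, 4.34 and 4.51 in striatum, a difference of 1.33 ± 0.07 (limma adjusted p = 1.69e-05). Zbtb20, a repressor of hippocampal pyramidal neurons and astrocytes, was at 5.99, 6.28 and 5.90 in prefrontal cortex and 8.05, 7.82 and 7.59 in striatum, a difference of 1.77 ± 0.15 (limma adjusted p = 1.62e-04). Dsp, a desmosome protein gene of dentate granule cells, was at 3.15, 3.04 and 3.00 in prefrontal cortex and 4.57, 4.80 and 4.83 in striatum, a difference of 1.67 ± 0.16 (limma adjusted p = 3.35e-04). Fibcd1 was higher by 0.84 ± 0.07 and C1ql2 by 0.63 ± 0.08, while Gng4, a G protein subunit, was lower by -1.70 ± 0.09 (limma adjusted p = 1.36e-05). The list's mean ran from 3.96 to 3.99 in prefrontal cortex and from 4.40 to 4.44 in striatum. Prox1 above is itself a member of this list, while Neurod6 and Gria1 above are not. The part of hippocampal and claustral cells in the differences of these genes was not tested. Septal, thalamic and pallidal genes were higher in 4 of 20 cases and lower in 1, with a median of 0.05; without replicate 1 of prefrontal cortex 0 were lower, and without replicate 3 of striatum the median was 0.031.

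Other genes among the 20 with the largest differences on each side belonged to no single list. Higher in striatum were Cabp7, a calcium-binding protein gene, by 2.92 ± 0.09 (limma adjusted p = 5.71e-07) and Lpl, the lipoprotein lipase gene, by 1.96 ± 0.12 (limma adjusted p = 2.40e-05). Nr3c2, the mineralocorticoid receptor gene, was at 3.97, 3.98 and 4.02 in prefrontal cortex and 5.82, 5.65 and 5.85 in striatum, a difference of 1.79 ± 0.07 (limma adjusted p = 2.61e-06). Spock3, an extracellular proteoglycan gene, was higher by 2.05 ± 0.22 (limma adjusted p = 7.34e-04). Lower in striatum were Stmn1, the microtubule regulator stathmin, from 9.70, 9.81 and 9.80 in prefrontal cortex to 8.27, 8.17 and 8.35 in striatum, and Gfra2, the neurturin receptor, by -1.61 ± 0.16 (limma adjusted p = 4.33e-04). Car10, Exph5, Pdzrn3, Fhod3, Osbpl1a, Plcxd2, Igfbp6 and Ipcef1 had differences between -1.42 and -2.14. St6gal2, a sialyltransferase gene, was lower by -1.48 ± 0.30, but was not called without replicate 1 or 2 of prefrontal cortex or without replicate 2 or 3 of striatum, when it ranged from -1.25 to -1.50.

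Fewer region differences were called in the inflexible drinkers, with 219 genes of 18193 (1.2%). That count was 107 to 138 without any 1 of the inflexible arrays other than replicate 2 of striatum, without which it was 203. Both classes had a call in 178 of them, in the same direction in 177 and in opposite directions in 1, Inhba, which was at -0.23 in light and 0.27 in inflexible drinkers. The 178 are 20.9% of the light drinkers' called genes and 81.3% of the inflexible drinkers'. A call in 1 class alone does not show that the classes differ, so the difference of the region differences was tested on the 12 arrays. It was called in 80 genes (0.44%), 50 with a positive value (0.275%) and 30 with a negative one (0.165%), and in 71 of these the region difference was larger in size in light drinkers. This count was 28 without light-drinker prefrontal cortex replicate 3 and 39 to 46 without replicate 1 of that group, replicate 2 or 3 of light-drinker striatum, or replicate 1 or 3 of either inflexible group.

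**Figure D5:**
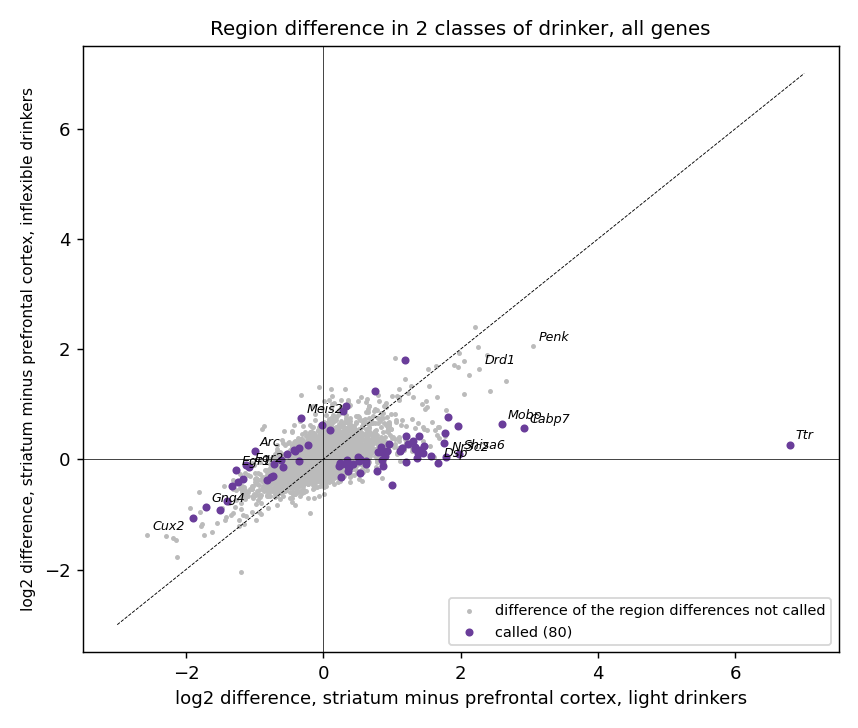
Region difference of every gene in inflexible drinkers (vertical axis) against that in light drinkers (horizontal axis), both log2 striatum minus prefrontal cortex. Each point is a gene, purple where the difference between the classes was called (80 genes), and the dashed line marks equal values. Ttr lies far to the right near 0 on the vertical axis, while Penk and Drd1 lie high in both classes.

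Several medium spiny neuron genes were called in both classes. Penk differed by 2.05 ± 0.13 in inflexible drinkers, Drd1 by 1.64 ± 0.13, Drd2 by 1.71 ± 0.15 and Ppp1r1b by 2.40 ± 0.31. In none of these 4 was the difference from light drinkers called. For Penk, light minus inflexible was 1.01 ± 0.18, near the threshold (limma adjusted p = 0.0701). For Drd1 it was 0.63 ± 0.19, for Drd2 0.19 ± 0.21 and for Ppp1r1b -0.19 ± 0.43. Between the classes, 0 of the receptor and peptide list were called with a positive difference and 1 with a negative one, 0 and 1 of the signalling list, and 1 and 3 of the striatal transcription factors. Slc35d3 differed by 1.18 in light and 1.79 in inflexible drinkers, a difference between the classes of -0.61 ± 0.10 (limma adjusted p = 0.0377), and the signalling gene was Arpp21, whose probe sets disagree. Bcl11b, the positive one, had a region difference of 0.76 ± 0.06 in inflexible drinkers and of 1.82 ± 0.06 in light drinkers. The difference between the classes was 1.06 ± 0.09 (limma adjusted p = 0.00190). Myelin genes had a median region difference of 0.33 in inflexible drinkers against 1.00 in light drinkers, and 2 of 19 were called between the classes. Hippocampal and claustral genes had a median of -0.02 against 0.48, and 5 were called with a positive difference between the classes and 1 with a negative one.

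The class values of Ttr lay apart in prefrontal cortex and close together in striatum. It was at 10.78 ± 0.43 (SD, n = 3 arrays) in the prefrontal cortex of inflexible drinkers and at 4.53 ± 0.17 in that of light drinkers, while both striatal groups were high, at 11.04 ± 0.28 and 11.33 ± 0.27. The mean of the medium spiny neuron receptor and peptide list was 4.20 to 4.23 in inflexible and 3.76 to 3.79 in light-drinker prefrontal cortex, and 5.02 to 5.05 and 4.72 to 4.73 in striatum. The hippocampal and claustral list's mean was 4.22 to 4.29 in inflexible and 3.96 to 3.99 in light-drinker prefrontal cortex. In striatum that mean was 4.19 to 4.33 in inflexible and 4.40 to 4.44 in light drinkers, so the classes lay apart in both regions. The myelin list's mean was 4.98 to 5.02 and 4.34 to 4.45 in prefrontal cortex, and 5.29 to 5.37 and 5.29 to 5.45 in striatum. The part of these levels in the difference between the classes was not tested. Egr1 was at 8.34 ± 0.10 in the prefrontal cortex of inflexible drinkers and 9.00 ± 0.02 in that of light drinkers, with a region difference in the former of -0.20 ± 0.08. The difference between the classes was -1.07 ± 0.11 (limma adjusted p = 0.00524).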

How the data were processed

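Total RNA of whole striatum and prefrontal cortex was hybridised to Affymetrix Mouse 430 2.0 arrays. The deposited values are log2 signals per probe set; per the submitters' processing notes the authors used RMA and affy, whose versions are not given in the sources used here, and the log base was read from the values. The authors' background correction, normalisation and summary cannot be redone from them. Precision is limited not by depth but by the number of arrays, or of RNA pools if the arrays of a group share 1 pool. Of 45101 probe sets, 64 controls were left out. Gene names came from the platform annotation: 34945 probe sets had 1 symbol, 932 several and 9160 none, and 34741 matched RefSeq. Samples were grouped by their titles.

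A model with 4 group means was fitted to 12 arrays (limma 3.58.1, R 4.3.3; 8 residual degrees of freedom) and tested on simulated data. Its contrasts were striatum minus prefrontal cortex in light drinkers, in inflexible drinkers, and the difference between these. Genes were named by a rule: the 20 largest called differences per side without overlapping arrays, the 8 largest per side between the classes, up to 8 called members of each list, and defining, receptor or opposing members beyond these. Predicted, clone-named and RIKEN models were counted and not named. The comparison, the rule and the 32 gene lists (632 of 702 genes measured) were chosen with earlier results of these data known. Alternatives changed the adjustment, a minimum fold of 1.5, array weights, blocks, the filter (above log2 4 on 3 arrays), the normalisation, the prior, the probe set rule and the arrays used. Tables were made with Python 3.11.15.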

Additional observations from a re-analysis of the deposited data

Results flagged for a closer look

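In 16 genes named for it, the region difference differed between light and inflexible drinkers by a test of that difference (limma on 12 arrays, adjusted p under 0.05 in each; n = 3 arrays per group). The following values are the light drinkers' difference minus the inflexible drinkers' on the log2 scale. On the positive side, Ttr led at 6.54, with region differences of 6.80 in light and 0.26 in inflexible drinkers. Cabp7 was at 2.35, from 2.92 and 0.57. Mobp was at 1.96, Shisa6 at 1.88, Nr3c2 at 1.74, Dsp at 1.73, Pcdh20 at 1.51 and the exchange factor gene Dock10 at 1.46. In these 8 genes the prefrontal cortex of inflexible drinkers was above that of light drinkers, for Nr3c2 at 5.26 ± 0.08 against 3.99 ± 0.03 (mean ± SD) and for Dsp at 4.17 ± 0.27 against 3.06 ± 0.08. The striatum of light drinkers was at 5.78 ± 0.11 for Nr3c2 and 4.73 ± 0.14 for Dsp. In inflexible drinkers the region differences of Nr3c2 and Dsp were 0.05 and -0.06, so their striatal means lay below those of light drinkers.

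On the negative side, Arc was at -1.14, Egr1 at -1.07, Meis2 at -1.07, Pitpnm3 at -1.01, Egr2 at -0.94, Ptgfrn at -0.84, Sowahb at -0.83 and Gng4 at -0.83. Arc was at 4.91 ± 0.10 in the prefrontal cortex of inflexible drinkers and 5.96 ± 0.07 in that of light drinkers, and its region difference in inflexible drinkers was 0.15 ± 0.13. Meis2 is the 1 gene of the 16 whose region difference was not called in light drinkers, at -0.33, and was called in inflexible drinkers, at 0.74 (limma adjusted p = 0.0179).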

How the results depend on the processing

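Of 178 named genes called in light drinkers, 118 kept their call in all 16 alternatives run for genes, and the only reversed value was that of Arpp21, at -0.29 with the mean of its probe sets. Among named genes without a call, Slc17a7 ranged from -1.44 to 0.55 with 1 array left out and was positive at 0.55 without prefrontal cortex replicate 2 and 0.31 without striatum replicate 3. Sst ranged from -0.18 to 0.056 with 1 array left out, positive without prefrontal cortex replicate 1 or striatum replicate 3, and turned to 0.39 on the bright-control arrays, and Fezf2 to 0.10 on the bright-control arrays. In the order of light drinkers' probe sets, their genes, inflexible drinkers' genes and genes between the classes, the main counts were 1496, 851, 219 and 80. Benjamini-Yekutieli adjustment gave 581.0, 342, 45 and 9. A minimum fold of 1.5 gave 128, 87, 11 and 4. Array weights gave 4685, 2457, 529 and 428. The control level as a block gave 3152, 1792, 583 and 242, dim-control arrays alone 2442, 1368, 140 and 31, and bright-control arrays alone, with 1 array per light-drinker group assumed to vary like the other groups, 3883, 1863, 1415 and 293. Between the classes, a trended robust prior gave 48. Leaving out 1 array gave 942 to 1421, 542 to 780, 107 to 203 and 28 to 87, the first 3 over the arrays of the same class and the fourth over all 12. The spread is shared, so the count of light drinkers' genes was 912 without inflexible prefrontal cortex replicate 2, and that of inflexible drinkers' genes 248 without light-drinker prefrontal cortex replicate 2. The cause of these changes was not tested. With replicate number as a block the counts were 1156, 664, 160 and 24. The labels do not say that the numbers pair samples, so no pairing was used. Deviations of same-numbered light-drinker arrays correlated at -0.66, -0.51 and 0.60 over 12060 probe sets. Across regions, the bright-control arrays correlated at 0.72 and pairs of dim-control arrays at 0.43 to 0.60, while every pair of a bright and a dim array was negative. These correlations therefore cannot show whether samples were paired. Counts of list members were recomputed under alternatives chosen after seeing the data. The medium spiny neuron signalling list had 14 to 23 members higher in striatum and the myelin list 11 to 16, leaving aside the minimum fold and Benjamini-Yekutieli. The hippocampal and claustral list had 5 to 11 higher, and the choroid plexus list 6 to 14, or 1 with the filter on low values.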
